A study of Homo sapiens with 6 samples.

Results

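Polycomb repressive complex 2 (PRC2) places the repressive mark H3K27me3 on chromatin. Its core holds a methyltransferase (EZH2 or EZH1) with SUZ12, EED and RBBP4 or RBBP7, and accessory subunits decide which form the core takes and where it binds. In the form called PRC2.1 the core carries a Polycomb-like protein (PHF1, MTF2 or PHF19) together with EPOP or a PALI protein, encoded at the LCOR and LCORL loci. In the form called PRC2.2 it carries JARID2 and AEBP2. KDM6A (UTX) and KDM6B (JMJD3) work against PRC2 by removing methyl groups from H3K27. The transcripts of these 10 genes are described here, chosen by gene symbol from the 60640 gene identifiers of the tables. Each symbol had a single row, and each row was estimated in every library.

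RNA-seq was performed on polyA RNA of MOLT-4, an established line from a human leukemia of the T lineage (T-ALL). There were 3 wild type libraries and 3 libraries labelled IK-KO, from MOLT-4 cells in which CRISPR-Cas was used against IKZF1, the gene of the DNA-binding factor IKAROS. The comparison asks which subunits that guide or oppose H3K27 methylation differ in transcript level between the lines. The study's methods state that edited and control cells were purchased. The labels name no clone, and an effect of the edit cannot be told apart from any other difference between edited and control cells. The labels do not say that the replicates are separate cultures, so p-values measure the spread between these libraries, which may be technical.

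Values are FPKM, fragments scaled by transcript length and library depth. Because of this scaling, levels of different genes can be set side by side. The tables hold no counts, but their confidence bounds allowed a relative depth, which lay between 0.897 and 1.09 of the mean, with overlapping groups. IKZF1 RNA stood higher in IK-KO libraries (225 ± 30.3 against 121 ± 15.1 FPKM; SD, n = 3), so the RNA level does not show the deletion. The study's methods report that the knockout was checked by PCR and western blot. All 12 T lineage markers were detected, 4 of them called higher and 5 lower, beside 10.1% and 9.75% of all tested genes. They summed to between 1336 and 1399 FPKM in wild type and between 1422 and 1589 FPKM in IK-KO. The 4 called higher were CD3D, CD3G, CD1A and PTCRA. CD1A lay between 47.3 and 53.1 FPKM in wild type and between 91.5 and 96.9 FPKM in IK-KO. The 5 called lower were CD7, CD5, CD2, CD4 and CD8A. CD2 lay between 58.9 and 63.7 FPKM in wild type and between 4.98 and 5.39 FPKM in IK-KO. CD4 was low in both groups, at 2.76 ± 0.178 FPKM in wild type and 0.384 ± 0.117 FPKM in IK-KO (SD, n = 3). The 6 B lineage markers summed to between 1.52 and 3.66 FPKM in wild type and between 1.10 and 1.64 FPKM in IK-KO. The 6 myeloid markers summed to between 0.0842 and 0.617 FPKM and between 0.335 and 0.606 FPKM, with CD33 at 0 in all 6 libraries. Of 12 proliferation genes, 1 was called higher and 1 lower, beside 10.1% and 9.75% of all tested genes.

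All 10 genes were expressed above a mean of 1 FPKM and entered the fit of 12652 genes. A gene was called at a limma adjusted p under 0.05, on log2(FPKM + 1). PHF19 fell, PHF1 and EPOP rose, and the other 7 did not pass the test. That is 3 of 10 called, beside a background of 19.9% of all tested genes, 2 called higher beside 10.1% and 1 called lower beside 9.75%. The group values were apart in 4 of the 10 genes (PHF19, PHF1, EPOP and KDM6B), beside 39% of all tested genes, and a share near the background is not a result about the 10 genes. The median log2 change over the 10 genes was 0.07, against 0.02 over all tested genes, and the median absolute log2 change was 0.27 against 0.18. The deposited confidence bounds of the groups were apart in 2 genes, PHF19 and EPOP, beside 9.33% of all tested genes.

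**Figure D1:**
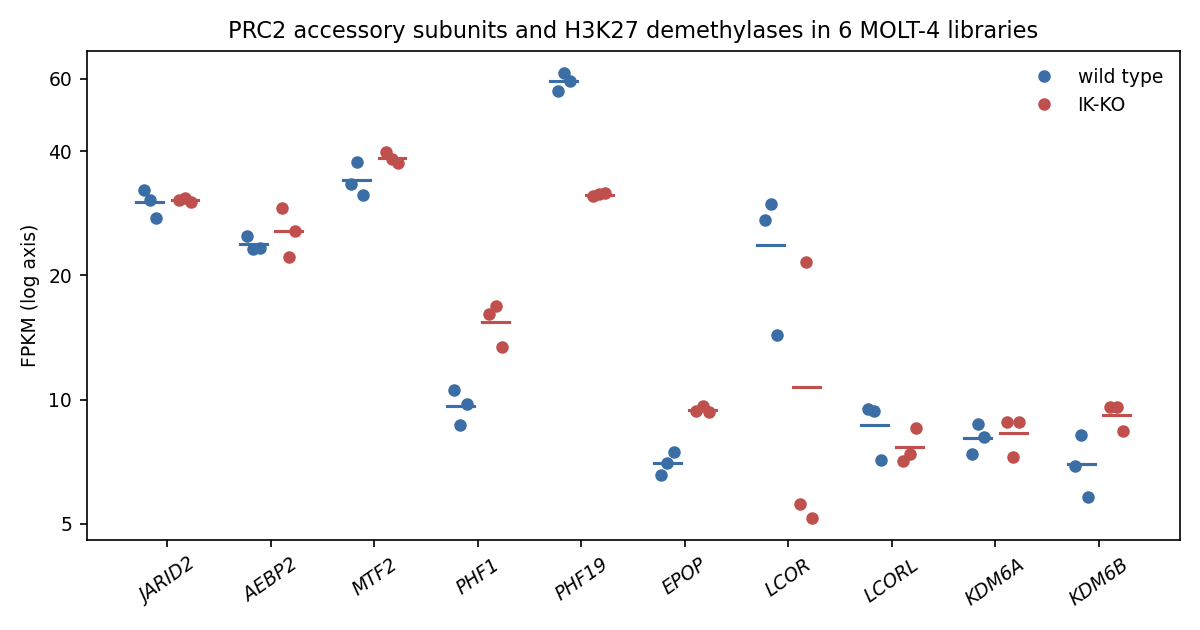
FPKM (log axis) of the 10 genes in each of the 6 libraries, with wild type in blue, IK-KO in red and a bar at each group mean. PHF19 drops from a mean of 59.0 to 31.4 FPKM, PHF1 and EPOP lie higher in IK-KO, and the LCOR values of IK-KO spread from 5.16 to 21.5 FPKM.

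Among the Polycomb-like genes, PHF19 held the highest level in wild type. The Polycomb-like proteins read methylated H3K36 through a Tudor domain and bring PRC2.1 to CpG-rich DNA. PHF19 (ENSG00000119403.15) lies on chromosome 9, minus strand, from 120855651 to 120894896 (hg38). Wild type replicates 1 to 3 read 56.1, 61.9 and 59.2 FPKM, and IK-KO replicates 1 to 3 read 31.1, 31.4 and 31.6 FPKM. All 3 IK-KO libraries lay below all wild type libraries, and they were close to each other. The mean went from 59.0 ± 2.90 to 31.4 ± 0.287 FPKM (SD, n = 3), a ratio of 0.532. On the log2 scale the change was −0.89 with an SE of 0.06 (limma adjusted p 0.000128). In bulk RNA, less transcript per cell and fewer cells with the transcript cannot be told apart. The deposited bounds spanned 51.5 to 66.6 FPKM over the wild type libraries and 27.5 to 34.9 FPKM over the IK-KO libraries, so the difference also exceeded the error that the authors' estimation gave to single libraries.

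PHF1 (ENSG00000112511.17; chromosome 6, 33410399 to 33416453, plus strand) went in the opposite direction from a lower level. Its values were 10.5, 8.69 and 9.73 FPKM in wild type and 16.1, 16.8 and 13.4 FPKM in IK-KO. The groups did not overlap, with IK-KO replicate 3 nearest to wild type. The mean rose 1.60-fold, from 9.65 ± 0.916 to 15.4 ± 1.79 FPKM (SD, n = 3). On the log2 scale the change was 0.62 with an SE of 0.11 (limma adjusted p 0.00824). The last bases of PHF1 overlap CUTA on the opposite strand. CUTA was listed at 213 to 234 FPKM in wild type and 273 to 315 FPKM in IK-KO, and its part in the PHF1 value was not tested. MTF2 (chromosome 1, 93079235 to 93139079, plus strand) read 33.3, 37.6 and 31.3 FPKM across the wild type libraries and 39.8, 38.3 and 37.5 FPKM across the IK-KO libraries. Wild type replicate 2 overlapped the IK-KO range, and the log2 change of 0.17 (95% interval −0.01 to 0.35) did not pass the test (limma adjusted p 0.164).

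The make-up of the Polycomb-like pool therefore differed between the groups. PHF19 gave 56.1%, 57.2% and 59.0% of the summed FPKM of PHF1, MTF2 and PHF19 in wild type, and 35.7%, 36.3% and 38.3% in IK-KO. The MTF2 share was 33.1 ± 1.77% in wild type and 45.1 ± 0.796% in IK-KO (SD, n = 3). The PHF1 share was 9.42 ± 1.27% and 18.1 ± 1.64% (SD, n = 3). PHF19 thus led the pool in every wild type library and MTF2 led it in every IK-KO library. The ratio of PHF19 to MTF2 was 1.74 ± 0.131 in wild type and 0.816 ± 0.0321 in IK-KO, and the ratio of PHF19 to EZH2 was 0.675 ± 0.0373 and 0.291 ± 0.00447 (SD, n = 3). The sum of the pool was 103 ± 4.68 FPKM in wild type and 85.3 ± 2.43 FPKM in IK-KO (SD, n = 3), with no overlap. These shares are given without a test, because they rest on the same values as the calls.

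**Figure D2:**
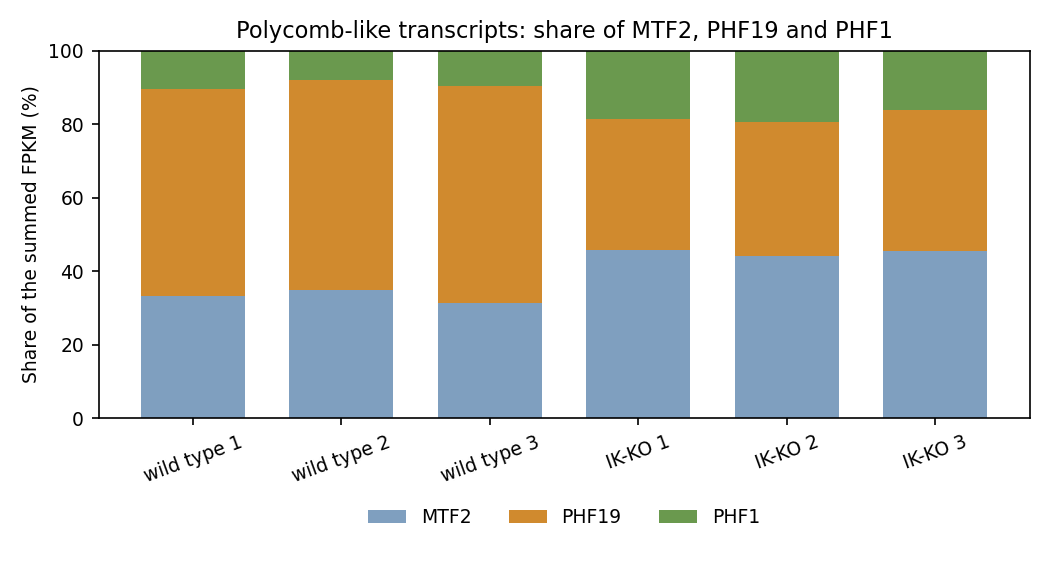
Share (%) of MTF2, PHF19 and PHF1 in their summed FPKM, as 1 stacked bar for each of the 6 libraries. PHF19 holds 57.4 ± 1.47% in wild type and 36.8 ± 1.37% in IK-KO (SD, n = 3), and MTF2 is the largest part in all 3 IK-KO libraries.

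The sequences before the starts of PHF19 and PHF1 are shown because these Polycomb-like genes were called in opposite directions and IKAROS binds DNA at sites with the core GGGAA. They come from RefSeq promoter windows of 250 bases before to 50 bases after a start (GRCh38.p14), ended here before the first protein-coding start in the window, with GGGAA on either strand in capitals. In GENCODE the PHF19 stretch lies in an intron of a longer PHF19 transcript and overlaps no exon, and the PHF1 stretch overlaps first exons of PHF1 transcripts not annotated as protein-coding. No protein-binding data were used here.
PHF19, minus strand, chr9:120877189-120877438: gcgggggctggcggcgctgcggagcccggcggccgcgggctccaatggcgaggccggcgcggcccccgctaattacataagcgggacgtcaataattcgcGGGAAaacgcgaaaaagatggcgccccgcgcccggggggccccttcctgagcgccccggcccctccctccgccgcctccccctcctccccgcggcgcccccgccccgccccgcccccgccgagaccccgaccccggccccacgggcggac
PHF1, plus strand, chr6:33410764-33410960: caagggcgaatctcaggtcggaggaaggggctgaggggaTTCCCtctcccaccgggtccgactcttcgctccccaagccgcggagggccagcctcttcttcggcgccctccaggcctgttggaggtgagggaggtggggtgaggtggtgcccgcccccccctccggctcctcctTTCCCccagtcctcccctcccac

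A further RefSeq window of PHF19, before a start at lower coordinates, holds no match of GGGAA or of the E2F-type letters given next and is not printed. The PHF19 stretch shown holds 1 match, at base 101 counted from 1 at its 5′ end, and the PHF1 stretch holds 2, at bases 40 and 175, both as TTCCC. RefSeq windows were found for 9 of the 10 genes (not EPOP), 14 windows in all. GGGAA was present on either strand in 10 of these 14 (71.4%), against 65% of all 35116 windows of the same length. The E2F-type letters TTTCCCGC, read on both strands, contain TTCCC and so overlap the GGGAA count. They were present in 2 of the 14 windows, those of PHF19 (base 99) and MTF2 (base 256, after the start), against 1.63% of all windows. PHF19 fell and MTF2 did not pass the test. A match describes letters only.

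PHF19 was next set against its neighbours, because the genes of chromosome 9 were lower as a whole. The other tested genes among the 469 of chromosome 9 had a median log2 change of −0.35, and 5.56% of them lay below PHF19. The 10 nearest tested genes on each side, between 114611206 and 122905359, had a median log2 change of −0.44. Of these 20 neighbours, 18 were lower, 9 were called, and 3 lay below PHF19. The nearest tested gene on the lower side was CUTALP, at 22.1 FPKM in wild type and 19.7 FPKM in IK-KO (log2 change −0.16, limma adjusted p 0.387). On the higher side it was CNTRL, a centriole component, at 14.2 and 6.77 FPKM (log2 change −0.96, limma adjusted p 0.000447). The genes beside PHF19 thus ranged from little difference to a larger one than its own.

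In each library the median deviation of the neighbours, measured from each gene's mean over the 6 libraries, was then removed. The PHF19 values relative to the wild type mean were −0.14, 0.04 and 0.09 on the log2 scale in wild type and −0.49, −0.46 and −0.52 in IK-KO. The groups still did not overlap. The remaining log2 change was −0.49 (SE 0.07, 95% interval −0.66 to −0.32, limma adjusted p 0.0044), so PHF19 lay below its neighbourhood by more than the spread between libraries. It was smaller than the full log2 change of −0.89, and the part that the shift of the chromosome has in it was not tested.

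**Figure D3:**
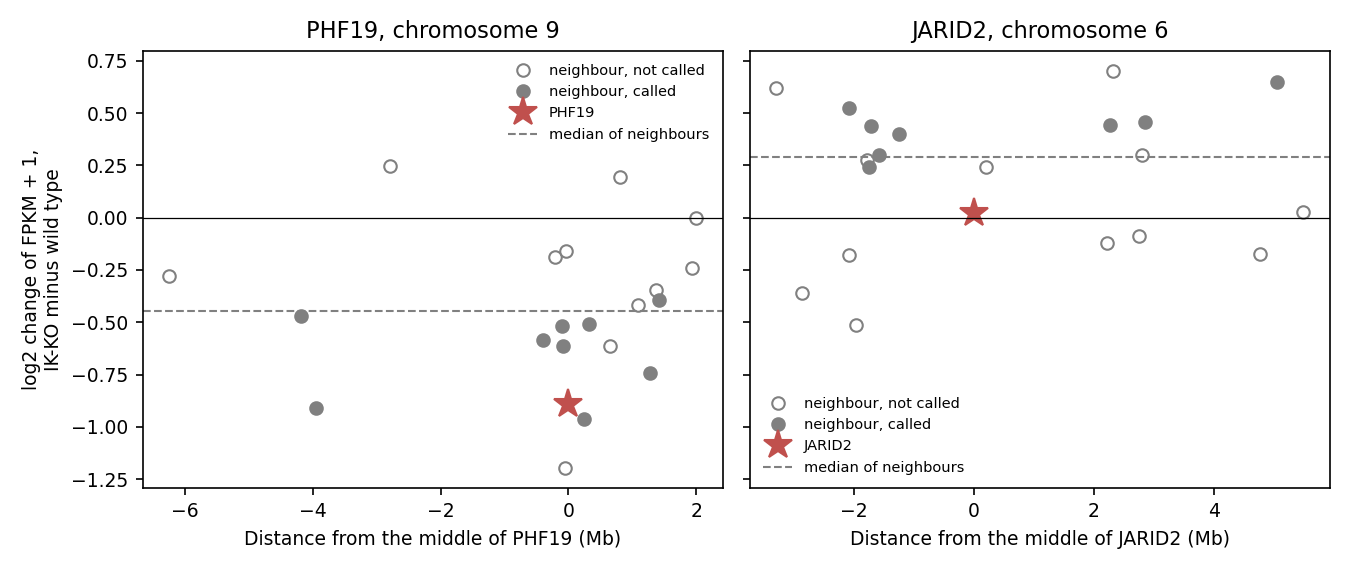
log2 change (IK-KO minus wild type) of the 20 nearest tested genes against their distance in Mb from the middle of PHF19 (left) and JARID2 (right), with called neighbours filled, the gene itself as a star and the neighbours' median dashed. PHF19 lies below the median of −0.44 and JARID2 lies below the median of 0.29.

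JARID2 and AEBP2, the subunits of PRC2.2, did not pass the test. JARID2 helps PRC2 to bind nucleosomes and stimulates its activity. JARID2 (ENSG00000008083.14; chromosome 6, 15246069 to 15522042, plus strand) read 32.2, 30.4 and 27.6 FPKM across the wild type libraries and 30.5, 30.8 and 30.2 FPKM across the IK-KO libraries. The IK-KO libraries lay inside the wild type range. The change was 0.02 on the log2 scale (SE 0.07, 95% interval −0.14 to 0.19, limma adjusted p 0.863).

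Against its neighbours JARID2 was on the low side. Chromosome 6 genes had a median log2 change of 0.21, and 27.4% of the others lay below JARID2. The 20 nearest tested genes, between 12008762 and 21232404, had a median log2 change of 0.29, with 14 higher, 6 lower and 8 called. The nearest tested gene on the lower side was CD83, a surface protein of activated lymphoid cells, at 11.6 FPKM in wild type and 15.7 FPKM in IK-KO (log2 change 0.40, limma adjusted p 0.0231). On the higher side it was DTNBP1, at 21.6 and 25.8 FPKM (log2 change 0.24, limma adjusted p 0.085). With the neighbours removed, JARID2 stood at 0.11, −0.05 and −0.06 on the log2 scale in wild type and at −0.27, −0.25 and −0.18 in IK-KO. These groups did not overlap, nor did those of PHF19, EPOP, PHF1, MTF2 and KDM6B after the same step. The share over all tested genes was 39% before this step and was not counted after it. The JARID2 log2 change of −0.23 (SE 0.07, 95% interval −0.39 to −0.08) did not pass the test (limma adjusted p 0.0544). It passed with 25 neighbours on each side (limma adjusted p 0.0352). It also passed over the 8974 genes of at least 5 FPKM on average (limma adjusted p 0.00906), where both the neighbours and the genes tested differ. It did not pass with 5 on each side (limma adjusted p 0.0514), with the whole chromosome (0.0564 adjusted) or with a pseudocount of 0.1 (0.0503 adjusted).

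AEBP2, a zinc finger protein that binds next to SUZ12, lies on chromosome 12 at 19404045 to 19720801 (plus strand). It read 24.9, 23.2 and 23.3 FPKM across the wild type libraries and 29.2, 22.1 and 25.6 FPKM across the IK-KO libraries. IK-KO held both the lowest and the highest library, and the log2 change was 0.10 (95% interval −0.14 to 0.34, limma adjusted p 0.566). JARID2 and AEBP2 summed to 53.9 ± 3.14 FPKM in wild type and 56.1 ± 3.42 FPKM in IK-KO (SD, n = 3), with overlap. The Polycomb-like sum over this sum was 1.75, 2.02 and 1.97 in wild type and 1.46, 1.64 and 1.48 in IK-KO. Every IK-KO library thus held less Polycomb-like RNA per PRC2.2 accessory RNA than any wild type library.

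Of the other PRC2.1 subunits, EPOP rose and the PALI loci did not pass the test. EPOP links PRC2.1 to elongin B and elongin C. EPOP (ENSG00000273604.2; chromosome 17, 38671703 to 38674957, minus strand) read 6.55, 7.02 and 7.46 FPKM across the wild type libraries and 9.36, 9.66 and 9.35 FPKM across the IK-KO libraries. All IK-KO values lay above all wild type values. The mean rose 1.35-fold, from 7.01 ± 0.452 to 9.46 ± 0.18 FPKM (SD, n = 3). On the log2 scale the change was 0.39 with an SE of 0.08 (limma adjusted p 0.0177). This call lay near the threshold and was lost in 5 of the 6 fits that left out 1 library (limma adjusted p 0.0537 to 0.0648). It held without wild type replicate 3 (limma adjusted p 0.0273). With its neighbours removed the log2 change of EPOP was 0.51 (limma adjusted p 0.0125), and the median log2 change of these neighbours was −0.13. Its partners ELOB and ELOC had log2 changes of 0.03 and 0.01 (limma adjusted p 0.845 and 0.928).

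LCOR had the widest spread of the 10 genes. The locus encodes a nuclear receptor corepressor and, in longer transcripts, PALI1, and a gene-level row cannot separate them. LCOR (ENSG00000196233.13; chromosome 10, 96832282 to 96995959, plus strand) read 27.2, 29.7 and 14.4 FPKM across the wild type libraries and 5.58, 21.5 and 5.16 FPKM across the IK-KO libraries. IK-KO replicates 1 and 3 were low, and IK-KO replicate 2 lay inside the wild type range. The log2 change was −1.29 (SE 0.52, 95% interval −2.50 to −0.07, limma adjusted p 0.130). The deposited bounds were 0.400 to 54.0, 0 to 60.5 and 0 to 39.0 FPKM in wild type, and 0 to 43.2 FPKM in IK-KO replicate 2. In IK-KO replicates 1 and 3 they were 4.89 to 6.27 and 4.33 to 5.99 FPKM, so the libraries with high values were those with wide bounds. Without IK-KO replicate 2 LCOR was called (log2 change −1.90, limma adjusted p 0.0148). LCORL (chromosome 4, 17841199 to 18021876, minus strand), the PALI2 locus, read 9.49, 9.36 and 7.13 FPKM across the wild type libraries and 7.09, 7.37 and 8.54 FPKM across the IK-KO libraries. The groups overlapped, and the log2 change was −0.15 (95% interval −0.45 to 0.15, limma adjusted p 0.465). Its end overlaps NCAPG on the opposite strand, which was listed at 32.7 to 41.2 FPKM over the 6 libraries.

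**Figure D4:**
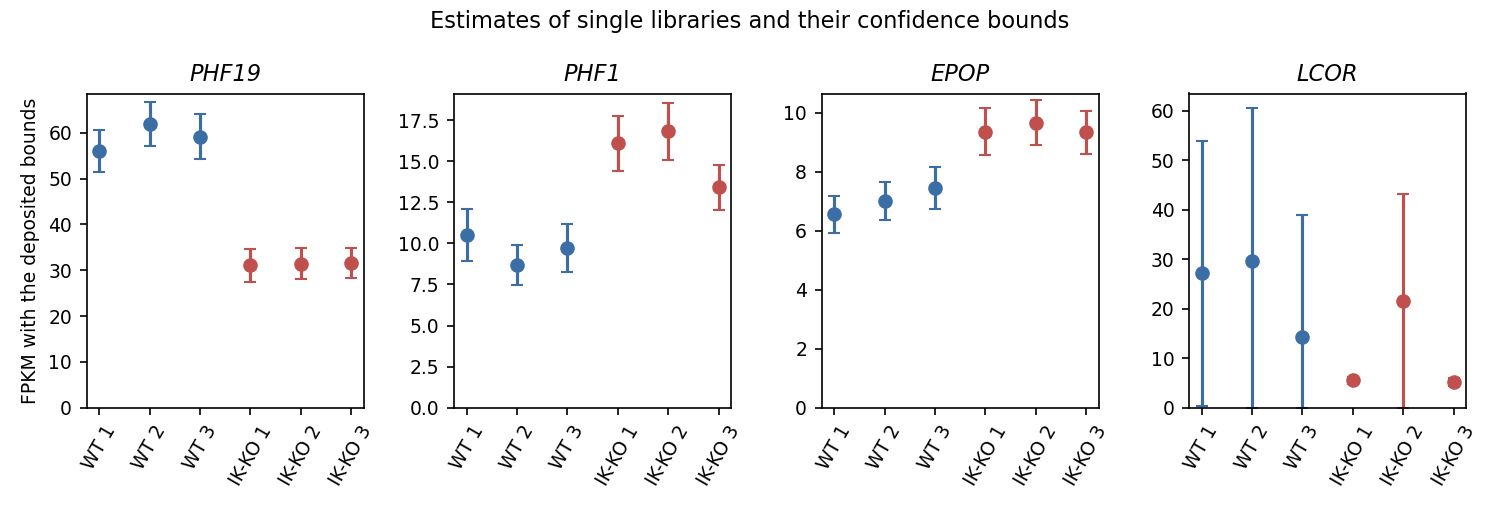
FPKM of PHF19, PHF1, EPOP and LCOR in each library (wild type blue, IK-KO red), with the lower and upper confidence bound of the deposited tables as bars, each panel starting at 0. The bounds of PHF19 and EPOP are apart between the groups, those of PHF1 overlap slightly, and those of LCOR reach from 0 to 60.5 FPKM.

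The H3K27 demethylases did not pass the test. KDM6A (chromosome X, 44873177 to 45112602, plus strand), which also acts inside the KMT2C and KMT2D methyltransferase complexes, read 7.38, 8.70 and 8.12 FPKM across the wild type libraries and 8.85, 7.27 and 8.81 FPKM across the IK-KO libraries. The groups overlapped, with a log2 change of 0.04 (95% interval −0.22 to 0.29, limma adjusted p 0.854). KDM6B (chromosome 17, 7839904 to 7854796, plus strand), the inducible demethylase, read 6.90, 8.21 and 5.81 FPKM across the wild type libraries and 9.58, 9.58 and 8.40 FPKM across the IK-KO libraries. All IK-KO values lay above all wild type values, but the log2 change of 0.36 (SE 0.13, 95% interval 0.06 to 0.66) did not pass after adjustment (limma adjusted p 0.0919). The ratio of KDM6B to KDM6A was 0.935, 0.943 and 0.715 in wild type and 1.08, 1.32 and 0.953 in IK-KO. KDM6B was thus below KDM6A in every wild type library and above it in 2 of 3 IK-KO libraries. EZH2 FPKM over the summed demethylases was 5.86 ± 0.540 in wild type and 6.18 ± 0.296 in IK-KO (SD, n = 3), which overlapped.

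**Figure D5:**
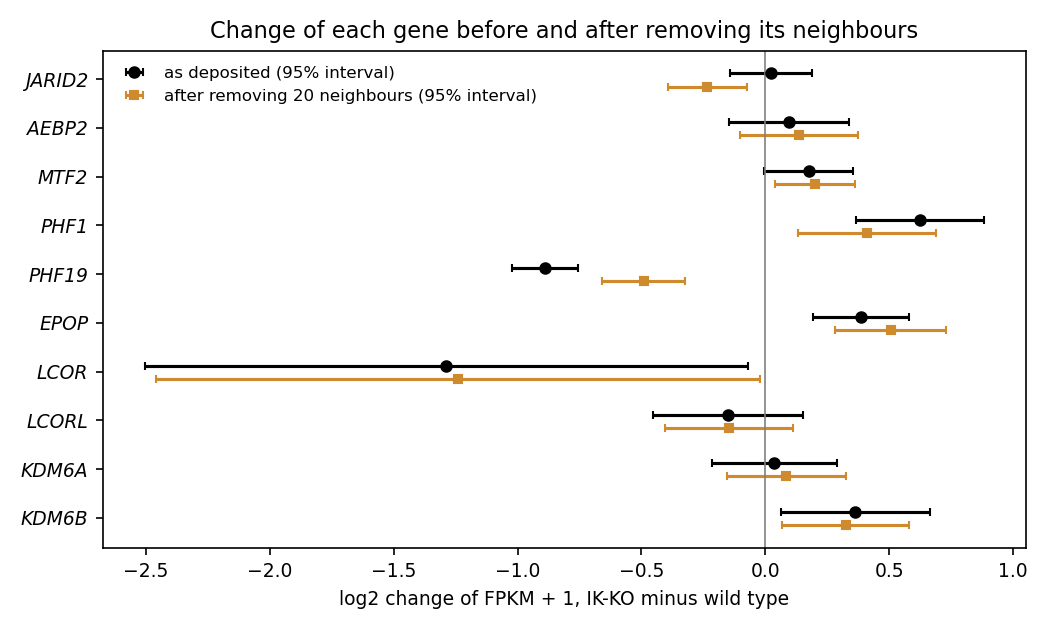
log2 change of FPKM + 1 (IK-KO minus wild type) of the 10 genes as deposited (black) and after removing the 20 nearest tested genes (orange), both with 95% intervals. PHF19 moves from −0.89 to −0.49 and JARID2 from 0.02 to −0.23.

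The same step was applied to the other genes. With neighbours removed, 2 of the 10 were called (PHF19 and EPOP), beside 17.8% of all tested genes. PHF1, whose 20 neighbours on chromosome 6 had a median log2 change of 0.21, had a log2 change of 0.41 (SE 0.12) and lost its call (limma adjusted p 0.0544). MTF2 stood at 0.20 (limma adjusted p 0.0898), KDM6B at 0.32 (0.0866 adjusted), AEBP2 at 0.14 (0.411 adjusted), LCORL at −0.15 (0.410 adjusted), KDM6A at 0.08 (0.621 adjusted) and LCOR at −1.24 (0.148 adjusted).

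The order of levels also differed. In wild type the means ran from PHF19 (59.0 FPKM) over MTF2 (34.1), JARID2 (30.1), AEBP2 (23.8), LCOR (23.7), PHF1 (9.65), LCORL (8.66), KDM6A (8.07) and EPOP (7.01) to KDM6B (6.97 FPKM). Only PHF19 over MTF2, JARID2 over AEBP2 and LCOR over PHF1 were separated in all libraries among neighbours in this order. The deposited bounds of JARID2 and AEBP2 overlapped, and those of LCOR (0 to 60.5 FPKM) covered those of PHF1 (7.49 to 12.1 FPKM). In IK-KO the order was MTF2 (38.5 FPKM), PHF19 (31.4), JARID2 (30.5), AEBP2 (25.6), PHF1 (15.4), LCOR (10.8), EPOP (9.46), KDM6B (9.19), KDM6A (8.31) and LCORL (7.67 FPKM). Here each of the first 4 was separated from the next in all libraries, PHF19 from JARID2 by little. The deposited bounds overlapped between PHF19 and JARID2 and between JARID2 and AEBP2. From PHF1 downward the neighbours in this order overlapped.

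The core of PRC2 and the partners of the demethylase were examined beside these genes. Of the 6 core genes, limma called 2 higher and 0 lower, beside 10.1% and 9.75% of all tested genes, and the median log2 change was −0.01. At an unadjusted p under 0.05, 2 were lower (SUZ12 and EZH1), beside 15.7% of all tested genes. EZH2 rose from 87.5 ± 1.98 to 108 ± 1.94 FPKM (SD, n = 3; log2 change 0.30, limma adjusted p 0.00436), and RBBP4, a histone-binding subunit, from 274 ± 15.1 to 329 ± 3.08 FPKM (log2 change 0.27, limma adjusted p 0.0101). SUZ12 and EZH1 had log2 changes of −0.29 and −0.35 (limma adjusted p 0.061 and 0.0634), and EED and RBBP7 of 0.05 and −0.07 (0.66 and 0.327 adjusted). With neighbours removed, the log2 changes of EZH2 and RBBP4 were 0.14 and 0.13, and neither was called (limma adjusted p 0.094 and 0.0619). The ratio of EZH2 to EZH1 was 5.12 ± 0.393 in wild type and 8.20 ± 1.02 in IK-KO (SD, n = 3). Summed over the 7 accessory genes other than LCOR, accessory FPKM was 172 ± 6.25 in wild type and 159 ± 3.92 in IK-KO, and per SUZ12 it was 4.56 ± 0.388 and 5.13 ± 0.265 (SD, n = 3), which overlapped.

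Of the 9 KDM6A partners, limma called 1 lower and 0 higher, beside 9.75% and 10.1% of all tested genes. Their median log2 change was −0.05. At an unadjusted p under 0.05, 1 was higher (DPY30), beside 17.7% of all tested genes, and 3 were lower (WDR5, KMT2C and KMT2D), beside 15.7%. The called gene was WDR5, a shared subunit of the KMT2 complexes that lies on chromosome 9, at 38.3 ± 0.927 and 29.8 ± 1.37 FPKM (SD, n = 3; log2 change −0.35, limma adjusted p 0.00664). KMT2C, KMT2D, NCOA6, PAXIP1, PAGR1, RBBP5, ASH2L and DPY30 had log2 changes between −0.20 and 0.23 and did not pass the test. With neighbours removed, the log2 change of WDR5 was −0.02 (limma adjusted p 0.883). In that fit PAXIP1 at 0.28 (limma adjusted p 0.0123) and DPY30 at 0.30 (limma adjusted p 0.0209) passed, beside 17.8% of all tested genes. The other 6 partners did not pass. CREBBP and EP300, which acetylate H3K27, did not pass as deposited (log2 changes 0.05 and −0.02, limma adjusted p 0.759 and 0.944). Nor did they with neighbours removed (log2 changes 0.007 and −0.08, limma adjusted p 0.969 and 0.762). EZHIP, an inhibitor of PRC2, was at 0 in 5 libraries and reached 0.11 FPKM in the sixth, IK-KO replicate 2.

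The genes whose 6 library values, centred on the log2 scale, lay nearest to those of PHF19 were DDAH1 (distance 0.106), MPP2 (0.127) and CD1B (0.141). DDAH1 went from 2.73 to 0.914 FPKM and MPP2 from 3.29 to 1.26 FPKM, with log2 changes of −0.96 and −0.92. Both are low genes, whose changes are understated by log2(FPKM + 1). CD1B, a lipid-presenting molecule of cortical thymocytes, went from 127 to 72.5 FPKM, with a log2 change of −0.80. None of these lies on chromosome 9. Nearest to JARID2 were MYL12B (distance 0.0146), RBL2 (0.0473) and SRSF6 (0.049). These distances describe 6 libraries that share 1 cell line and carry no test.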

How the data were processed

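PolyA RNA of MOLT-4 was sequenced in 3 wild type and 3 IK-KO libraries, grouped by the labels (NEBNext Ultra II RNA kit). The authors deposited 1 gene-level table of FPKM per library, with confidence bounds and a status. The submitters' processing notes name STAR 2.6.1c, Cufflinks 2.2.1, HOMER 4.10 and hg38. The annotation and strand setting are not given in the sources used here, so overlapping genes are uncertain. The study's methods mention merging of technical replicates and name no libraries for it.

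Rows of 1 identifier were summed (110 of 60640 identifiers lie on more than 1 row), and 29 identifiers marked as not estimated were left out. Coordinates count from 1, and all 49727 single-row identifiers found in GENCODE release 44 lay at its position. Changes were tested on log2(FPKM + 1), which understates changes of low genes, with limma 3.58.1 in R 4.3.3 (eBayes with trend, two-sided, Benjamini-Hochberg over 12652 genes whose mean FPKM reached 1). The study names a test of 2 conditions and a 2-fold limit. For neighbours, the median deviation of the 10 nearest tested genes on each side was subtracted per library, and all genes were refitted. An exact permutation test of 3 against 3 cannot go below 0.1. The fit was also run on simulated data with fewer changed genes and independent noise. That run cannot show how the fit performs on these libraries. Likeness was the Euclidean distance of centred log2 values.

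The tables hold no counts. Depth was estimated from 17627 genes with 1 transcript, using in each library those that reached an FPKM of 1. By their bounds, an FPKM of 1 in 1 kilobase rests on about 13.8 to 16.8 fragments, which covers counting error only. The named genes are the 10 members, the core and partner lists, the nearest tested neighbours of PHF19 and JARID2, and the 3 genes most like each. NCAPG and CUTA were named after their values were seen. The members and lists were chosen with earlier results of these data known. Alternatives were another pseudocount, filters, scalings, a fit without trend, without chromosomes 6 and 9, a replicate block, kept rows, other neighbourhoods and leaving out each library.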

Additional observations from a re-analysis of the deposited data

How the results depend on the processing

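The calls of PHF19 and its difference from its neighbours held under every alternative run that kept chromosome 9. Where neighbours were not removed, its log2 change lay between −0.93 and −0.86. Beyond its neighbours the log2 change lay between −0.57 and −0.45. The limma adjusted p over both went up to 0.0231. Over the fits that left out 1 library, between 2 and 3 of the 10 genes and between 1692 and 2004 of all genes were called, PHF19 beyond its neighbours lay between −0.56 and −0.45, and JARID2 beyond its neighbours between −0.28 and −0.20 without passing. Without IK-KO replicate 2 the 3 called genes were PHF19, PHF1 and LCOR. Chromosomes 6 and 9 hold JARID2, PHF1 and PHF19. Without these chromosomes, 1 of the remaining members was called (EPOP), beside 16.7% of all 11528 genes tested. JARID2 beyond its neighbours passed with 25 on each side (−0.23) and at a mean FPKM of at least 5 (−0.31). The JARID2 log2 change was −0.23 with its neighbours removed. In the fits that left out 1 library it lay between −0.037 and 0.072, and that of KDM6A between −0.019 and 0.12, so both changed sign without passing. The causes were not tested.

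Same-numbered libraries deviated together little (r = 0.0669, 0.0248 and 0.00546 across genes). Differently numbered libraries gave r between −0.0878 and 0.0599. With 3 libraries per group, these values cannot decide whether the numbers pair the libraries. With the replicate block, 1805 genes were called against 2515, and 2 of the 10 genes, as EPOP was lost (0.39, limma adjusted p 0.0522). With the block PHF19 beyond its neighbours stayed at −0.49 (limma adjusted p 0.0195) and JARID2 at −0.23 (limma adjusted p 0.118).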
